A study of Mus musculus with 8 samples.

Results

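The genes described here are 10 early-response feedback regulators: Dusp1, Dusp5, Dusp6, Zfp36, Zfp36l1, Btg1, Btg2, Ier2, Ier3 and Sgk1. They were taken by gene name from a table of 55414 genes, where each name matched 1 row. The table holds counts per gene for 8 mouse libraries, 4 from Emb knockdown mice and 4 from WT mice, all made from colon at 4 weeks of age. Cells were dissociated from colon, stained for CD24 and CD56 and sorted into tubes of about 250 cells, and RNA was amplified with a Smart-seq kit. The labels call the sorted cells enteric neurons. The labels do not state how Emb was knocked down, in which cells, or on which strain background. They name 4 mice of each genotype but do not tie a tube to a mouse, so some of the spread that the p-values measure may be technical.

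Early-response genes are switched on within minutes of a stimulus without new protein synthesis. The feedback regulators among them shut the response down again. Dual-specificity phosphatases remove phosphate from MAP kinases, the ERK, p38 and JNK enzymes that carry growth and stress signals. Tristetraprolin (Zfp36) and its relative Zfp36l1 bind AU-rich elements in the 3' untranslated regions of short-lived mRNAs and recruit the CCR4-NOT deadenylase, which starts their decay. Btg1 and Btg2 also bind CCR4-NOT and restrain proliferation, Ier2 and Ier3 encode small early-response proteins, and Sgk1 encodes a kinase induced by serum and glucocorticoids.

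The libraries differed between genotypes in depth and make-up. Total counts ranged from 2024372 to 2712754 in Emb knockdown and from 698930 to 954191 in WT. The 18S ribosomal RNA gene Rn18s-rs5 took 36.5% ± 5.53 of counts in Emb knockdown and 8.72% ± 4.00 in WT (SD, n = 4 each). Emb itself had 3 to 25 counts in Emb knockdown and 4 to 22 in WT (log2 fold change -1.24 ± 0.82 SE, edgeR adjusted p = 0.529), so no decrease of the targeted transcript was detected. The labelled cell type was weakly marked. The 12 enteric neuron markers summed to 220 to 530 CPM in Emb knockdown and 264 to 453 CPM in WT, and 6 enteric glia markers summed to 271 to 582 CPM in Emb knockdown and 192 to 407 CPM in WT. The highest WT glial sum, in replicate 2, held 170 CPM of Foxd3, a neural crest factor. The glial filament gene Gfap had 93.4 to 260 CPM in Emb knockdown and 54.8 to 125 CPM in WT. Tubb3 and Snap25, which mark neurons, stayed at or below 5.94 and 8.11 CPM in Emb knockdown and 6.09 and 15.2 CPM in WT. The libraries are therefore called by genotype below. CPM are counts relative to library depth after TMM scaling, which assumes that most genes do not differ. In such pooled cells, more cells of a type and more RNA per cell cannot be told apart.

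Sequence near the gene starts gives context for the values. RefSeq windows on GRCm38.p6 were matched for 9 of the 10 genes, all but Ier2. Each window spans 250 bases before to 50 bases after an annotated start, and Sgk1 has 6. They were searched on both strands for the cyclic AMP response element TGACGTCA and its core TGACG (which lies within the full element). The search also took TGANTCA, a loose form of the AP-1 site with any base at N, and the CArG box, the site of serum response factor. TGACGTCA was present in Dusp1 and Btg2, and in 1.79% of all 32851 windows. A CArG box was present in Dusp5, where 2 lie end to end, and in Zfp36, and in 1.63% of all windows. TGACG stood in 5 of the genes (Dusp1, Dusp5, Btg1, Btg2 and the Sgk1 window starting at 21978422) and in 20.8% of windows. TGANTCA stood in Zfp36l1, where it reads TGATTCA, and in 7.81% of windows. The 250 bases before the start are shown 5' to 3' for the 4 genes with a full element, with TGACG, TGACGTCA and CArG matches in capitals.
Dusp1, chr17:26508473-26508722, minus strand: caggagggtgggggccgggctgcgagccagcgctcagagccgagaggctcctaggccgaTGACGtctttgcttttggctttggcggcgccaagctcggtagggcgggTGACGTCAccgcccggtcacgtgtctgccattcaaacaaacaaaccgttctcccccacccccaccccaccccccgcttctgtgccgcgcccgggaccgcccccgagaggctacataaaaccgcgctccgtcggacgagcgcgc
Btg2, chr1:134079156-134079405, minus strand: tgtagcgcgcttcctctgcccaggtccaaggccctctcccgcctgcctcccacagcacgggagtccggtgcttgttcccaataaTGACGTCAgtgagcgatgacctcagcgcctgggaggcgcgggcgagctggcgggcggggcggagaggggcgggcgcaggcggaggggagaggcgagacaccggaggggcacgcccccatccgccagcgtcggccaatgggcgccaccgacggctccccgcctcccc
Dusp5, chr19:53528895-53529144, plus strand: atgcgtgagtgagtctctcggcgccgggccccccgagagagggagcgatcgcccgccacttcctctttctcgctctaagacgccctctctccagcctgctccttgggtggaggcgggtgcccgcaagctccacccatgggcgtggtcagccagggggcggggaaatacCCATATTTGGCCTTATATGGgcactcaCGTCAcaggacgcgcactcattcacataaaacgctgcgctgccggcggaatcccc
Zfp36, chr7:28379229-28379478, minus strand: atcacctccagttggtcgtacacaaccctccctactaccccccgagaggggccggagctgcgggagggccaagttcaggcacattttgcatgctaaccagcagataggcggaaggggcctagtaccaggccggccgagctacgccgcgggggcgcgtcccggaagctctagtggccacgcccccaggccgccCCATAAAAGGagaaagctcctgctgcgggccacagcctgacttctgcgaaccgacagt
Positions count from the start, with negative numbers before it. In Dusp1 the full element begins at -143 and a separate TGACG at -191. In Btg2 the full element begins at -166. The Dusp5 CArG boxes begin at -82 and -72, with TGACG on the other strand at -55, and the Zfp36 box at -58 reads CCATAAAAGG. These matches are a description of the letters and not a test of binding.

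The 10 genes were also compared in the 3' untranslated regions of their GENCODE M21 principal transcripts, since 2 of the genes encode binders of AU-rich elements. The heptamer TATTTAT, the core of the tristetraprolin site, occurred in 6 of the 10 regions and in 26.7% of 20331 protein-coding genes. Ier3 held 5 copies of the pentamer ATTTA in 613 bases, a number reached by 2.93% of the 2461 genes with a region of similar length, taken as a length ratio of at least 0.8 either way. Zfp36l1 held 9 copies in 1835 bases, reached by 5.84% of 2862 genes, and Dusp1 held 4 in 690 bases, reached by 9.75% of 2543. Zfp36 held 3 copies in 774 bases, and all 3 lay in TATTTAT heptamers. Dusp5, Dusp6, Btg1 and Ier2 held no TATTTAT. Sites of 30 bases, with ATTTA in capitals, are shown for Ier3 and Dusp1, where ATTTA was densest, and for Zfp36, whose own product binds such sites.
Ier3, chr17:35822477-35822506, plus strand: tccgtgtctaattaatATTTAtgtATTTAt
Dusp1, chr17:26506167-26506196, minus strand: ggctcatgggagctggtccttATTTATTTA
Zfp36, chr7:28376962-28376991, minus strand: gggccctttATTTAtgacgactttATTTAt
In Ier3 and Zfp36 the pentamers stand apart, and in Dusp1 they overlap by 1 base.

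Most of the 10 genes had higher levels in Emb knockdown than in WT, but none passed the adjusted p. Of the 10, 8 had enough counts to be tested, and 7 of these had a positive log2 fold change of Emb knockdown over WT, as did 51.6% of all tested genes. It was above 2 in 4 of the 8 (Dusp1, Dusp6, Zfp36l1 and Btg2), against 8.57% of all tested genes. Dusp6, Zfp36l1 and Dusp1 had the largest fitted differences, Btg2 and Btg1 were intermediate, Zfp36 was smaller, and the differences of Sgk1 and Dusp5 were small beside their errors. The edgeR quasi-likelihood test, adjusted by Benjamini-Hochberg over 11353 genes, gave the 8 genes adjusted p-values of 0.294 to 0.807, and it called 0.00% of all genes, the lowest adjusted p being 0.0719. An unadjusted p under 0.05 was reached by 5 of the 8, all higher in Emb knockdown, where 13.3% of all tested genes reached it in either direction, 8.64% higher and 4.64% lower. Groups did not overlap in 4 of the 8 (Dusp1, Dusp6, Zfp36 and Zfp36l1), all higher in Emb knockdown, against 8.28% of all tested genes in either direction, 4.03% higher and 4.25% lower. The exact two-sided permutation test over 70 assignments gave these 4 its smallest possible p of 0.0286, which adjusts to 0.345 over all genes. The median log2 fold change of the 8 was 2.21, beside 0.04 for all tested genes. The 10 genes were chosen with earlier results of these data known. Their shares and median beside those of all genes are therefore a description and not a test. With the DESeq2 Wald test, 3 of the 8 (Dusp1, Dusp6 and Btg2) passed an adjusted p of 0.05, all higher in Emb knockdown, as did 8.21% of the 8315 genes it adjusted, or 5.83% in that direction. With low counts left in, edgeR called Dusp1, Dusp6, Zfp36l1 and Ier2, all higher, and 1.88% of 48530 genes, with 1.49% called in that direction.

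**Figure D1:**
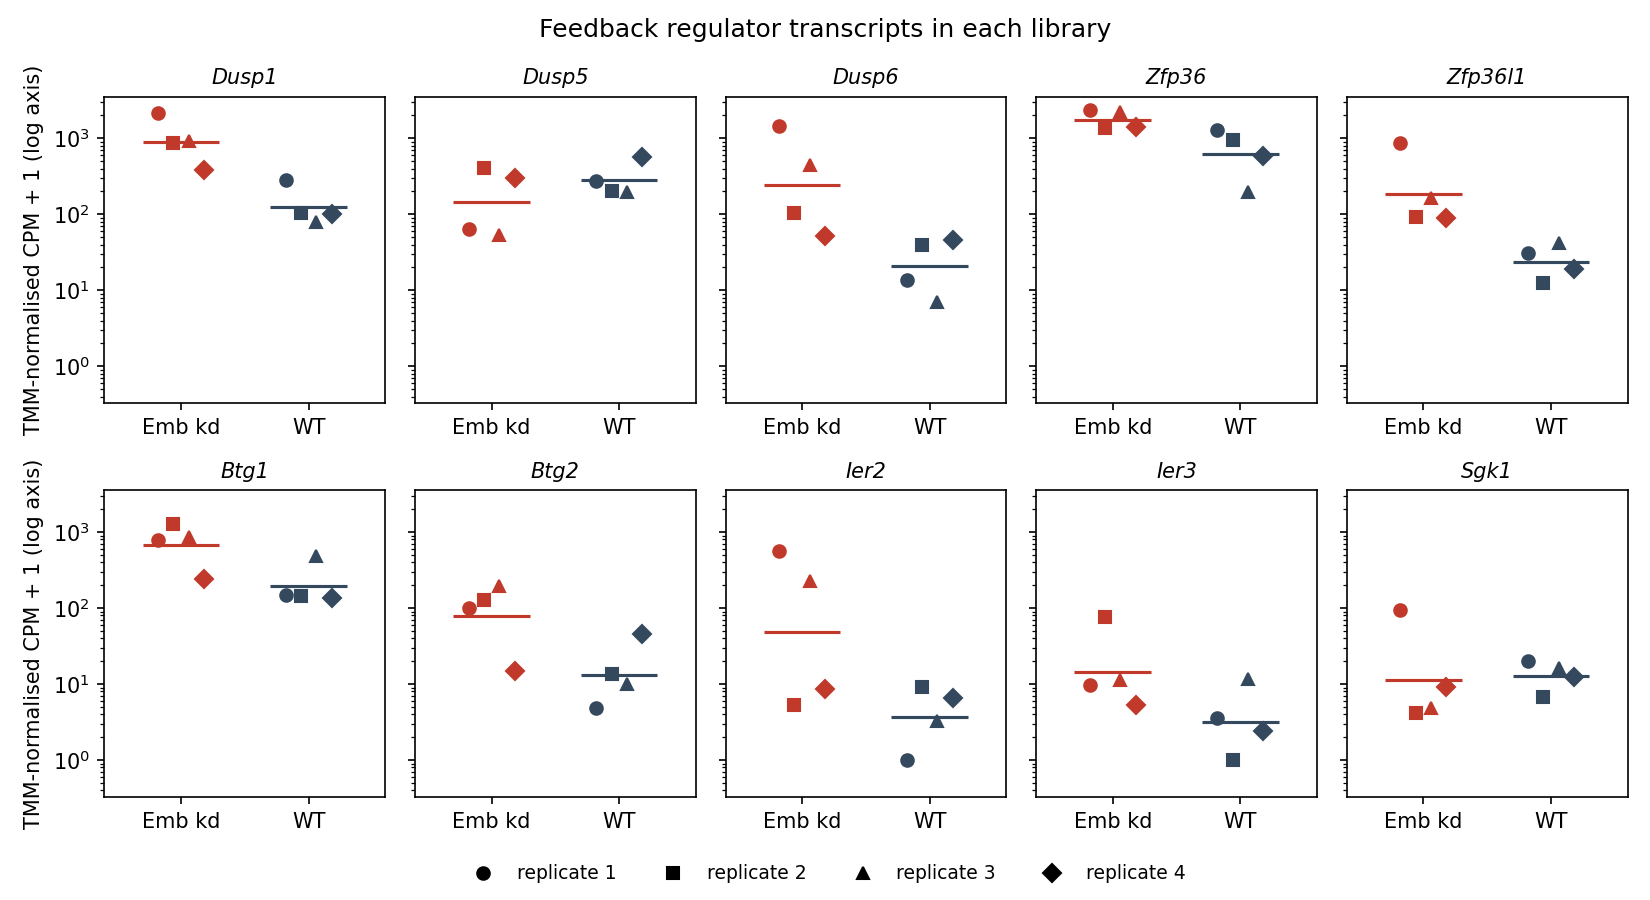
TMM-normalised CPM plus 1 on a log axis for each of the 10 genes, with Emb knockdown libraries in red at the left and WT libraries in grey-blue at the right. Marker shapes give the replicate number and lines the geometric mean. The groups are separate for Dusp1, Dusp6, Zfp36 and Zfp36l1, and Emb knockdown replicates 1 and 3 stand apart for Ier2.

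The 3 phosphatases were not alike. Dusp1 (ENSMUSG00000024190, GRCm38 chromosome 17, 26505590 to 26562128, minus strand), a nuclear phosphatase of p38, JNK and ERK, had 2153, 864, 914 and 382 CPM in Emb knockdown replicates 1 to 4, against 278, 102, 77.6 and 101 CPM in WT replicates 1 to 4. Every Emb knockdown library lay above every WT library, and replicate 1 was the highest of each group. The means were 1078 ± 755 CPM in Emb knockdown and 140 ± 92.8 CPM in WT (SD, n = 4 each), with a log2 fold change of 2.95 ± 0.81 SE (95% interval from 1.18 to 4.71, with an edgeR adjusted p of 0.294). Without Emb knockdown replicate 1 it was 2.36.

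Dusp6 (ENSMUSG00000019960, chromosome 10, 99263231 to 99267489, plus strand), a cytoplasmic phosphatase specific for ERK and a common readout of ERK activity, was barely counted in WT. It had 1438, 102, 449 and 50.1 CPM in Emb knockdown replicates 1 to 4, against 12.9, 39.1, 6.09 and 45.0 CPM in WT replicates 1 to 4. The groups did not overlap, but Emb knockdown replicate 4 stood only just above WT replicate 4, and the Emb knockdown libraries spanned 28.7-fold. Its log2 fold change was 4.31 ± 1.21 SE (edgeR adjusted p = 0.295), and 2.93 without Emb knockdown replicate 1. Against a background level, the reads per kilobase over 1504 odorant, pheromone and trace amine receptor genes that the colon is not known to use, Dusp6 lay at 15.1 to 542 times in Emb knockdown and 1.26 to 9.50 times in WT.

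Dusp5 (ENSMUSG00000034765, chromosome 19, 53529109 to 53542431, plus strand), a nuclear phosphatase specific for ERK and itself induced through ERK, did not follow the other phosphatases. It had 64.0, 409, 52.4 and 302 CPM in Emb knockdown replicates 1 to 4, against 270, 202, 196 and 572 CPM in WT replicates 1 to 4. Emb knockdown replicates 1 and 3, the highest for Dusp6, were the lowest of all 8 libraries for Dusp5, and replicates 2 and 4 lay within the WT range. Its log2 fold change was -0.58 ± 0.84 SE (95% interval from -2.42 to 1.26, with an edgeR adjusted p of 0.807), and 0.045 when libraries were scaled to the receptor genes. Leaving out Emb knockdown replicate 2 gave -1.15, and leaving out WT replicate 4 gave -0.11. Dusp5 lay at least 15.3 times above the receptor background in every library, so even its low values lay above that floor.

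Of 7 other MAP kinase phosphatases, 3 had enough counts to be tested. Dusp4 averaged 6.65 ± 6.02 CPM in Emb knockdown and 17.1 ± 12.1 CPM in WT (SD, n = 4 each, log2 fold change -1.35 ± 0.79 SE, edgeR adjusted p = 0.481). Dusp16 and Dusp8, phosphatases of the stress-activated kinases, had log2 fold changes of -0.68 and -0.13. None of the 3 had an unadjusted p under 0.05.

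Of the mRNA decay regulators, Zfp36 (ENSMUSG00000044786, chromosome 7, 28376784 to 28380253, minus strand) was the most abundant of the 10 genes per kilobase of transcript. It had 2326, 1376, 2193 and 1390 CPM in Emb knockdown replicates 1 to 4, against 1284, 940, 199 and 587 CPM in WT replicates 1 to 4. The groups did not overlap, although the lowest Emb knockdown library exceeded the highest WT library by a small margin. Zfp36 was also the steadiest of the 10 in Emb knockdown, with a 1.69-fold span. The means were 1821 ± 509 CPM in Emb knockdown and 753 ± 466 CPM in WT (SD, n = 4 each), and the log2 fold change was 1.28 ± 0.69 SE (95% interval from -0.24 to 2.79, with an edgeR adjusted p of 0.443).

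Zfp36l1 (ENSMUSG00000021127, chromosome 12, 80107754 to 80113013, minus strand), which acts on the same class of mRNA, had 880, 92.2, 163 and 89.0 CPM in Emb knockdown replicates 1 to 4, against 29.6, 11.5, 41.1 and 18.3 CPM in WT replicates 1 to 4. Emb knockdown replicate 1 stood far above the others, and the lowest Emb knockdown library was still above the highest WT library. Its log2 fold change was 3.60 ± 0.99 SE (95% interval from 1.43 to 5.76, with an edgeR adjusted p of 0.294), and 2.15 without Emb knockdown replicate 1. DESeq2 gave no p-value to Zfp36l1 or Sgk1, as it does for genes with an outlying library.

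The machinery that these proteins recruit had members on both sides. Of 29 genes of deadenylation and decay 26 were tested, with 16 higher and 10 lower in Emb knockdown and a median log2 fold change of 0.14. By edgeR 0 passed the adjusted p, while 5 of the 26 reached an unadjusted p under 0.05, all higher. Over all tested genes 13.3% reached it in either direction, and 8.64% were higher. The exosome nuclease subunit Exosc10 was at 2.85 ± 1.02 SE, the decapping factor Dcp1b at 3.37 ± 1.24, the CCR4-NOT subunit Cnot10 at 1.77 ± 0.73 and the AU-rich element binder Hnrnpd at 1.93 ± 0.82 (edgeR adjusted p = 0.311 to 0.345). The Exosc10 and Dcp1b means each rested largely on 1 Emb knockdown library, with 255 CPM of Exosc10 in replicate 3 and 260 CPM of Dcp1b in replicate 4.

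Among 17 other AU-rich transcripts bound by tristetraprolin, 11 were tested, 9 of them higher and 2 lower in Emb knockdown, with a median log2 fold change of 1.16. Of all tested genes 51.6% were higher. The chemokine Cxcl1 averaged 71.4 ± 14.0 CPM in Emb knockdown and 21.5 ± 3.71 CPM in WT (SD, n = 4 each, log2 fold change 1.73 ± 0.54 SE, edgeR adjusted p = 0.295). The cytokine Tnf, a classic tristetraprolin target, averaged 81.3 ± 76.6 CPM in Emb knockdown and 7.23 ± 7.74 CPM in WT (3.47 ± 1.11, adjusted p = 0.304). Groups did not overlap for these 2 of the 11, both higher, against 4.03% of all tested genes higher and 4.25% lower. Ccl2 and the prostaglandin synthase gene Ptgs2 were at 3.31 ± 1.43 and 1.55 ± 0.73. By edgeR none of the 11 passed the adjusted p, and 3 reached an unadjusted p under 0.05, all higher, against 8.64% of all tested genes.

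**Figure D2:**
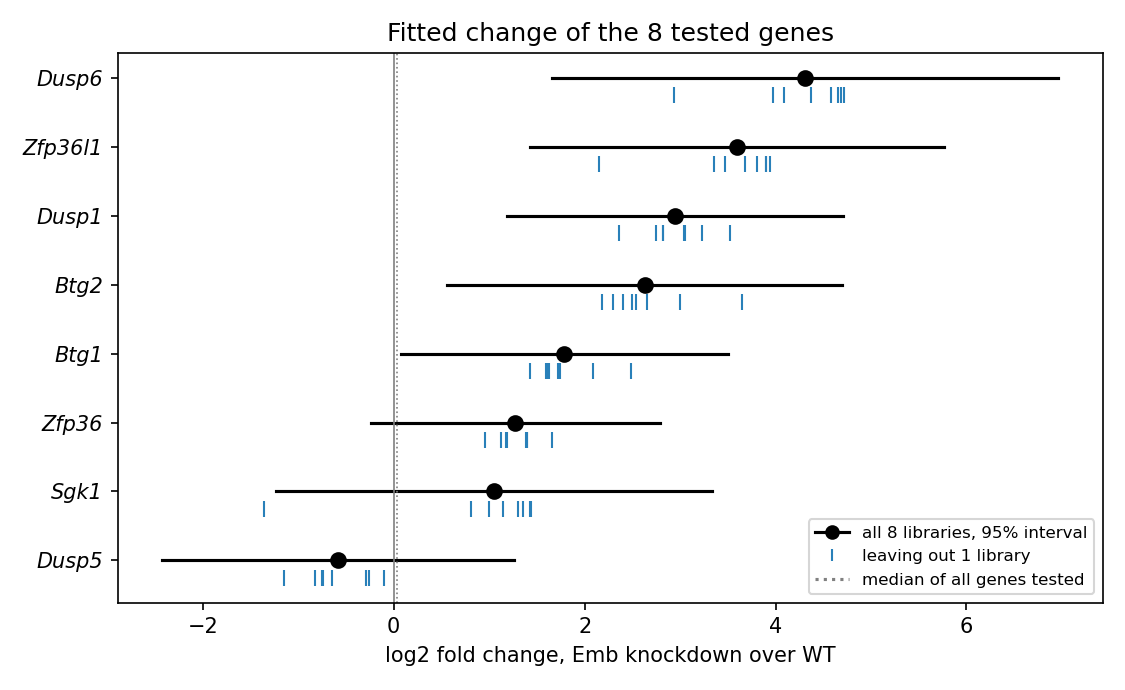
Log2 fold change of Emb knockdown over WT for the 8 tested genes. Points and black bars are the estimate and 95% interval from all 8 libraries, blue ticks the estimates with 1 library left out, and the dotted line the median of all tested genes. The interval lies above 0 for Dusp6, Zfp36l1, Dusp1, Btg2 and Btg1, and 1 tick of Sgk1 lies below 0 at -1.36.

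The antiproliferative genes were higher in 3 of 4 Emb knockdown libraries. Btg1 (ENSMUSG00000036478, chromosome 10, 96617006 to 96622809, plus strand), abundant in quiescent cells, had 794, 1270, 853 and 242 CPM in Emb knockdown replicates 1 to 4, against 149, 141, 491 and 134 CPM in WT replicates 1 to 4. Emb knockdown replicate 4 lay within the WT range, below WT replicate 3 alone, which stood far above the other WT libraries. Its log2 fold change was 1.79 ± 0.78 SE (95% interval from 0.08 to 3.50, with an edgeR adjusted p of 0.359), and 2.48 without WT replicate 3.

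Btg2 (ENSMUSG00000020423, chromosome 1, 134075170 to 134079120, minus strand), a p53 target and early-response gene, was less abundant than Btg1. It had 99.3, 126, 195 and 13.8 CPM in Emb knockdown replicates 1 to 4, against 3.86, 12.6, 9.13 and 45.0 CPM in WT replicates 1 to 4. Emb knockdown replicates 1 to 3 exceeded every WT library, and replicate 4 lay within the WT range. Its log2 fold change was 2.63 ± 0.95 SE (95% interval from 0.55 to 4.70, with an edgeR adjusted p of 0.311), and 3.65 without WT replicate 4. In WT, Btg2 lay at 0.734 to 9.68 times the receptor background, so its lowest WT value was below that background.

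Among relatives of the 10 genes, 6 of 9 were tested, with 5 higher and 1 lower, where 51.6% of all tested genes were higher. By edgeR 2 of the 6 reached an unadjusted p under 0.05, both higher, against 8.64% of all tested genes, and 0 passed the adjusted p. Groups did not overlap in 1 higher and 1 lower, against 4.03% and 4.25% of all tested genes. Tob1, an antiproliferative relative of Btg1 and Btg2, had 478, 118, 70.8 and 117 CPM in Emb knockdown replicates 1 to 4, against 20.6, 42.5, 15.2 and 16.9 CPM in WT replicates 1 to 4. The groups did not overlap (log2 fold change 3.04 ± 0.83 SE, edgeR adjusted p = 0.294). Ier5l was at 2.45 ± 0.89, Ier5 at 1.11 ± 0.81, and Sgk3, a kinase related to Sgk1, was at -1.10 ± 0.55 with groups that did not overlap.

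Of the 10 genes, Ier2 differed most between Emb knockdown libraries, with a 131-fold span. Ier2 (ENSMUSG00000053560, chromosome 8, 84661331 to 84662852, minus strand), a nuclear early-response gene, had 556, 4.24, 224 and 7.52 CPM in Emb knockdown replicates 1 to 4, against 0, 8.05, 2.28 and 5.62 CPM in WT replicates 1 to 4. Replicates 1 and 3 of Emb knockdown were high, and replicates 2 and 4 lay within the WT range, so the gene was either plentiful or near absent. The WT libraries held 14 counts in all, at 0 to 3.19 times the receptor background. The filter required 6.71 CPM, before TMM scaling, in 4 libraries and removed Ier2, which reached that in 2 Emb knockdown libraries and 1 WT library. Without the filter its log2 fold change was 5.88 ± 1.06 SE (edgeR adjusted p = 3.13e-05), a value that rests on 2 libraries of 4.

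Ier3 (ENSMUSG00000003541, chromosome 17, 35821684 to 35822923, plus strand), which encodes a regulator of ERK signalling and survival, was low and was also removed by the filter. It had 8.66, 74.2, 10.3 and 4.39 CPM in Emb knockdown replicates 1 to 4, against 2.57, 0, 10.7 and 1.41 CPM in WT replicates 1 to 4. Only Emb knockdown replicate 2 exceeded every WT library, a different library from those that held Ier2. Without the filter the log2 fold change was 2.86 ± 0.97 SE (edgeR adjusted p = 0.117).

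Sgk1 (ENSMUSG00000019970, chromosome 10, 21882184 to 21999903, plus strand), whose kinase regulates ion transport and cell survival, had 92.6, 3.18, 3.78 and 8.14 CPM in Emb knockdown replicates 1 to 4, against 19.3, 5.75, 15.2 and 11.2 CPM in WT replicates 1 to 4. Emb knockdown replicate 1 alone was above WT, and replicates 2 and 3 were below every WT library. Its log2 fold change was 1.05 ± 1.04 SE (95% interval from -1.23 to 3.33, with an edgeR adjusted p of 0.694) and -1.36 without Emb knockdown replicate 1, so no direction is given for Sgk1. The glucocorticoid and SGK1 axis, with 14 of 15 genes tested, had 6 higher and 8 lower and a median of -0.08. Klf9, a glucocorticoid-induced factor, was at 1.54 ± 0.69 (edgeR adjusted p = 0.372), and the SGK1 substrate gene Ndrg1 at -0.87 ± 0.67.

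The order of levels among the 10 genes, compared per kilobase of transcript, differed between genotypes, with Zfp36, Btg1 and Zfp36l1 at the same rank in both. Zfp36 was first in both, at 653 ± 183 CPM per kilobase in Emb knockdown and 270 ± 167 in WT (SD, n = 4 each). In Emb knockdown the order went on through Dusp1 (542 ± 380), Dusp6 (182 ± 230), Btg1 (158 ± 84.5), Ier2 (130 ± 171), Zfp36l1 (102 ± 129), Dusp5 (83.6 ± 71.6), Btg2 (39.6 ± 27.3), Ier3 (21.6 ± 29.5) and Sgk1 (10.96 ± 17.8). In WT it went on through Dusp5 (125 ± 71.9), Dusp1 (70.2 ± 46.6), Btg1 (45.7 ± 34.9), Dusp6 (9.21 ± 6.85), Zfp36l1 (8.40 ± 4.35), Btg2 (6.44 ± 6.77), Sgk1 (5.24 ± 2.35), Ier3 (3.23 ± 4.23) and Ier2 (2.62 ± 2.34). The ranges of neighbours overlapped at every step except between Btg1 and Dusp6 in WT, where the lowest Btg1 library, at 26.7, exceeded the highest Dusp6 library, at 16.1. Dusp5 was the seventh in Emb knockdown and the second in WT, Dusp6 was the third in Emb knockdown and the fifth in WT, and Ier2 was the fifth in Emb knockdown and the last in WT.

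The genes of the MAP kinase cascade did not move in a single direction. Of its 28 genes 20 were tested, 11 higher and 9 lower, with a median log2 fold change of 0.12. By edgeR 0 passed the adjusted p, and 2 higher and 2 lower reached an unadjusted p under 0.05. Over all tested genes 8.64% reached it higher and 4.64% lower. Map2k1, the kinase that activates ERK, averaged 5.84 ± 3.39 CPM in Emb knockdown and 29.4 ± 17.0 CPM in WT (SD, n = 4 each, -2.30 ± 0.72 SE, edgeR adjusted p = 0.297). Mapk3, which encodes ERK1, averaged 321 ± 426 CPM in Emb knockdown and 23.6 ± 34.3 CPM in WT (3.77 ± 1.59, edgeR adjusted p = 0.345). The Mapk3 mean rested on Emb knockdown replicates 1 and 3, with 298 and 931 CPM, and replicates 2 and 4 lay within the WT range. Rps6ka3, a kinase activated by ERK, was at 2.15 ± 0.84, and Mapk8, which encodes JNK1, at -1.86 ± 0.76. The other feedback inhibitors of receptor and ERK signalling had 9 higher and 4 lower of 13 tested, with a median of 0.71. Of all tested genes 51.6% were higher. By edgeR 3 of the 13 reached an unadjusted p under 0.05, all higher, against 8.64% of all tested genes, and 0 passed the adjusted p. Groups overlapped for all 13. Among these inhibitors Spry2, which acts on receptor tyrosine kinase signalling, averaged 64.7 ± 50.9 CPM in Emb knockdown and 11.6 ± 3.50 CPM in WT (2.47 ± 0.77, edgeR adjusted p = 0.295). Socs3, an inhibitor of cytokine receptors, was at 3.07 ± 1.00, Socs1 at 1.43 ± 0.68 and Spry1 at 3.38 ± 1.49. Spry1 rested on Emb knockdown replicate 1, with 208 CPM against at most 11.9 CPM in the other Emb knockdown libraries.

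**Figure D3:**
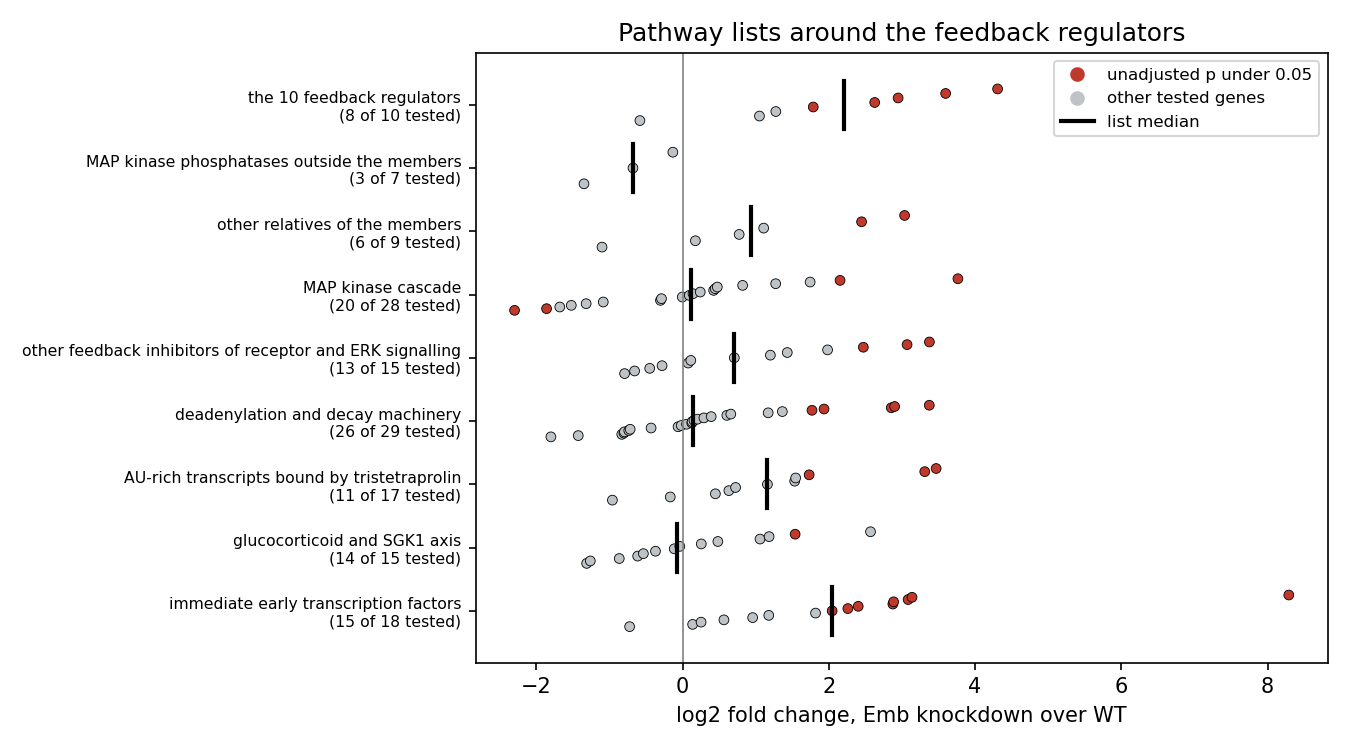
Log2 fold change of Emb knockdown over WT for each tested gene of the 10 feedback regulators and of 8 related lists. Red points have an unadjusted p under 0.05 and black bars are list medians. The medians of the 10 regulators and of the immediate early transcription factors, at 2.21 and 2.05, lie farthest to the right. The lists were chosen with earlier results of these data known.

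The transcription factors of the same early response had 14 of 15 tested genes higher in Emb knockdown and a median of 2.05. Of all tested genes 51.6% were higher. Of the 15 factors, 8 reached an unadjusted p under 0.05, all higher, against 8.64% of all tested genes, and none passed the adjusted p (edgeR). Nr4a1, an orphan nuclear receptor, averaged 727 ± 644 CPM in Emb knockdown and 2.24 ± 2.16 CPM in WT (SD, n = 4 each). Nr4a1, Jun, Fos and Egr3 had log2 fold changes of 8.29, 3.08, 3.14 and 2.05 (edgeR adjusted p = 0.121 to 0.295), each with groups that did not overlap. Groups did not overlap in 6 of the 15, all higher in Emb knockdown, against 4.03% of all tested genes higher and 4.25% lower.

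Among Emb knockdown libraries the genes fell into different orders. Replicate 1 was highest for 6 of the 10 genes (Dusp1, Dusp6, Zfp36, Zfp36l1, Ier2 and Sgk1), replicate 2 for 3 (Dusp5, Btg1 and Ier3) and replicate 3 for Btg2. Replicate 4 was highest for none and lowest for 6. Summed over the 10 genes the Emb knockdown libraries held 8411, 4321, 5057 and 2489 CPM in replicates 1 to 4, against 2050, 1463, 1047 and 1521 CPM in WT replicates 1 to 4. WT replicate 1 came closest to Emb knockdown, and the sums did not overlap.

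Of the other library measures, the macrophage marker sum had the same order of libraries as this sum. The 12 macrophage markers summed to 6999, 4527, 5653 and 4456 CPM in Emb knockdown replicates 1 to 4, against 4075, 2520, 1556 and 3249 CPM in WT replicates 1 to 4. The order was the same within each genotype. That comparison was made after the values were seen, over 11 library measures, and none of the other 10 gave the same order in both genotypes. The enteric neuron marker sum gave the same order in Emb knockdown but not in WT. In the sum of the 10 genes, WT replicates 4 and 2 were close, at 1521 and 1463 CPM. Dusp5 held 572 and 202 CPM of these, so their order rests on Dusp5. In the macrophage sum, Emb knockdown replicates 2 and 4 were close, at 4527 and 4456 CPM. C1qa alone had another order there, with 5233, 2812, 3978 and 3724 CPM in Emb knockdown replicates 1 to 4. Of the macrophage markers 9 of 11 tested were higher and 2 lower in Emb knockdown, and none of the 12 was at 0 in all libraries. The complement gene C1qa was the largest part of the sum in every library but WT replicate 3, where Cx3cr1 exceeded it. C1qa had 2812 to 5233 CPM in Emb knockdown and 510 to 2327 CPM in WT, and the scavenger receptor gene Mrc1 had 207 to 709 CPM in Emb knockdown and 28.1 to 70.3 CPM in WT. Cx3cr1, a chemokine receptor of resident macrophages, went the other way, with 7.02 to 682 CPM in Emb knockdown and 894 to 1539 CPM in WT. Groups did not overlap for 4 higher and 1 lower of the 11 tested markers, against 4.03% and 4.25% of all tested genes. The groups of Ptprc, Cd68, Csf1r and Tyrobp overlapped. Their highest values were 33.2, 34.0, 63.3 and 44.6 CPM in Emb knockdown and 37.9, 34.7, 29.9 and 70.1 CPM in WT. The 6 fibroblast markers summed to 256 to 497 CPM in Emb knockdown and 72.0 to 216 CPM in WT. The endothelial markers summed to 169 to 1396 CPM in Emb knockdown and 378 to 2003 CPM in WT, and the epithelial markers to 137 to 246 CPM in Emb knockdown and 183 to 229 CPM in WT. The part of macrophage or fibroblast RNA in the differences of the 10 genes was not tested. After ribosomal RNA was removed and every library was thinned to 608050 counts, the log2 fold changes of Dusp1, Dusp6, Zfp36, Zfp36l1, Btg1 and Btg2 were 2.79, 4.18, 1.10, 3.33, 1.67 and 2.41, and none passed the edgeR adjusted p.

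**Figure D4:**
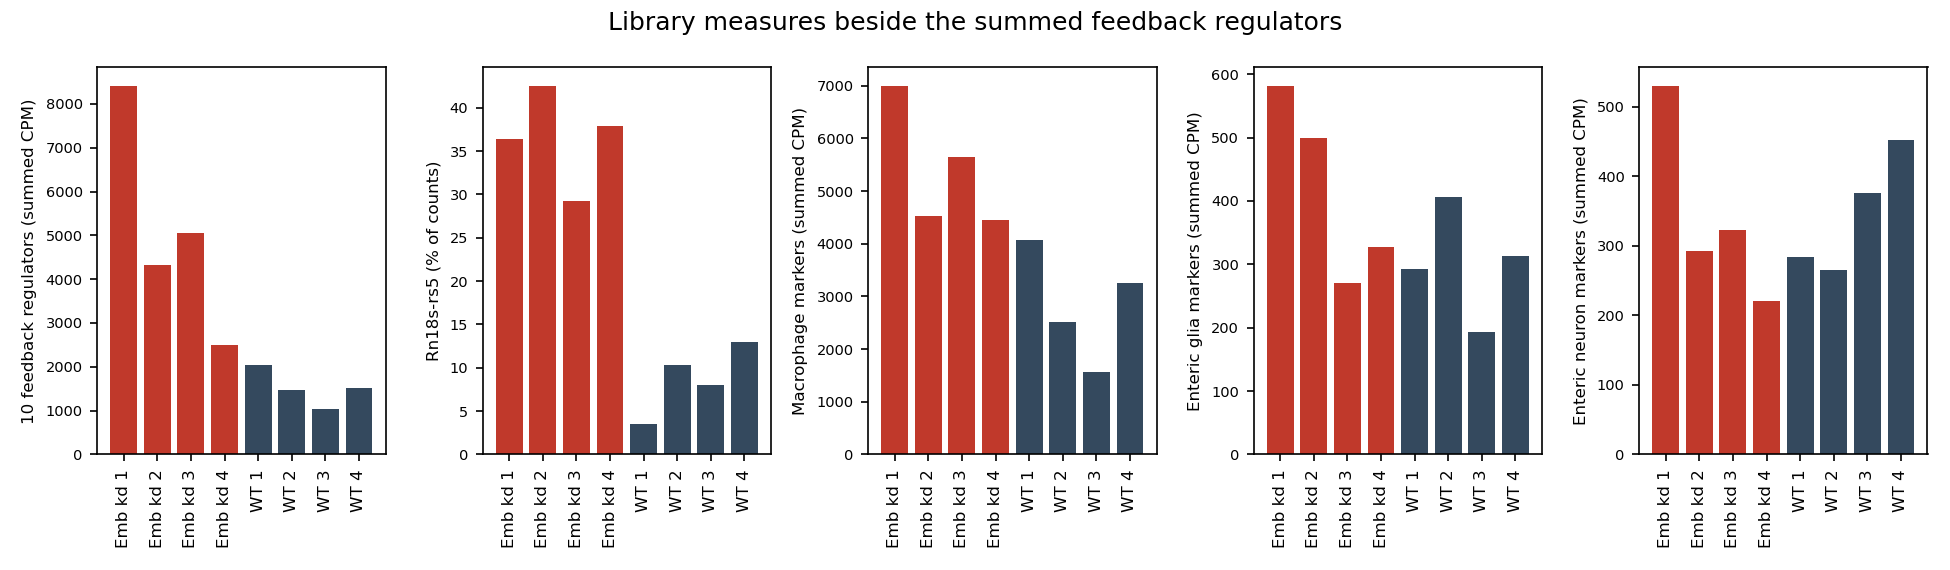
Summed CPM of the 10 feedback regulators, share of counts in Rn18s-rs5, and summed CPM of macrophage, enteric glia and enteric neuron markers, as 1 bar per library with Emb knockdown in red and WT in grey-blue. The macrophage sums run in the same order as the regulator sums within each genotype, from 4456 to 6999 in Emb knockdown and from 1556 to 4075 in WT.

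Counts assigned to copies and overlapping genes stand beside those of the 10 genes, and reads shared between them were not measured. The copies Btg1b and Btg1c held 16 and 7 counts in Emb knockdown and 3 and 0 in WT, beside 5553 and 979 counts of Btg1. The pseudogene Zfp36l1-ps held 3 counts in each genotype. Ergic1, which overlaps the long annotated span of Dusp1 on the opposite strand, held 99 counts in Emb knockdown and 95 in WT, beside 7162 and 479 counts of Dusp1.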

How the data were processed

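The authors deposited a table of raw whole-number counts, 1 column for each of the 8 libraries. Adapters were trimmed with cutadapt and the genome build was mm10, per the submitters' processing notes; the sources used here name no aligner, counting tool, strand setting or annotation release. Coordinates and transcripts came from GENCODE M21 on GRCm38, where 52081 of 55414 identifiers were found.

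The test was edgeR 4.0.16 (R 4.3.3), after filterByExpr with a minimum count of 10 and a minimum total of 15, with TMM scaling, robust quasi-likelihood fits with group as the only term, and Benjamini-Hochberg adjustment over all 11353 tested genes at 0.05. Standard errors came from the fold change and the F statistic. Permutation tests used log2(CPM + 1). DESeq2 1.42.0 and limma 3.58.1 voom served as alternatives. The fit was tested on simulated counts. Totals per library set the precision, and amplified reads are not independent molecules.

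Named genes were all 10 regulators, Emb, and up to 4 tested genes of each related list by smallest p. Marker genes were to be those with the highest mean CPM of each marker list. Tubb3, Snap25, Foxd3, Ptprc, Cd68, Csf1r and Tyrobp were named outside that rule. The genes and lists were chosen with earlier results of these data known. Background was the summed counts of 1504 receptor genes per kilobase. Replicate numbers were not taken as pairs, since same-numbered libraries deviated together with correlations of 0.0124 to 0.0331. A marker from the enteric glia list is not reported here.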

Additional observations from a re-analysis of the deposited data

Results flagged for a closer look

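Within a group of 4 libraries, a single library stood apart from the other 3 (a gap beyond Dixon's 95% critical value) in 5 of 20 groups for the 10 regulators and in 13 of 62 for the related genes, where chance gives about 1 in 20 for normally distributed values, which CPM are not. Among the regulators these were Dusp1 in WT replicate 1 (278 CPM against 77.6 to 102), Zfp36l1 in Emb knockdown replicate 1 (880 against 89.0 to 163), Btg1 in WT replicate 3 (491 against 134 to 149), Ier3 in Emb knockdown replicate 2 (74.2 against 4.39 to 10.3) and Sgk1 in Emb knockdown replicate 1 (92.6 against 3.18 to 8.14). Emb knockdown replicate 1 also stood apart for Tob1 (478 CPM), Spry1 (208 CPM) and Jun (3837 CPM). Emb knockdown replicate 2 stood apart for Ier5 (115 CPM) and for Emb itself (13.3 CPM against 1.62 to 3.33). Emb knockdown replicate 3 stood apart for Dusp4 (15.7 CPM), Exosc10 (255 CPM) and the summed endothelial markers (1396 CPM). Emb knockdown replicate 4 was high for Dcp1b (260 CPM), Scnn1a (16.9 CPM) and Ndrg1 (80.2 CPM) and low for Cnot10 (5.01 CPM). In WT, replicate 1 was high for Mapk3 (74.6 CPM) and Hnrnpd (91.3 CPM), replicate 2 for the summed smooth muscle markers (92.0 CPM), and replicate 3 was low for Cxcl1 (16.0 CPM).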

How the results depend on the processing

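The log2 fold changes of Dusp1, Dusp6, Zfp36, Zfp36l1, Btg1 and Btg2 stayed above 0 under all 16 alternatives, and the median of the tested regulators ran from 1.498 with library totals alone to 2.80 when scaled to the receptor genes, where the medians of all genes were -0.67 and 0.64. Leaving out 1 library at a time moved that median between 1.94 and 2.54, the number of regulators with an unadjusted p under 0.05 between 4 and 5, and the number of genes past the adjusted p between 0 and 1 (1 without WT replicate 1); the regulators past it stayed at 0. That number of genes was 2 with library totals alone, 910 with no filter (725 higher in Emb knockdown) and 683 with the DESeq2 Wald test (485 higher), against 0 in the fit reported, and 3 tested regulators passed with no filter and 3 with DESeq2. With no filter these were Dusp1, Dusp6 and Zfp36l1, and with DESeq2 Dusp1, Dusp6 and Btg2; the cause was not tested. With the replicate number as a block, 3 regulators had an unadjusted p under 0.05, where 5 did without it. The share of all tested genes under that p is not given for the blocked fit or for fits leaving out 1 library. These counts therefore have no background to be read against. Same-numbered libraries correlated at 0.0124 to 0.0331, and 3 of 4 correlated best with their own number. Sgk1 turned negative in limma voom (-0.37), with the replicate block (-0.26) and without Emb knockdown replicate 1 (-1.36), and ran from -1.36 to 1.44 over the fits that left out 1 library. Dusp5 was at 0.045 when scaled to the receptor genes. After ribosomal RNA was removed and counts were thinned to 608050 per library, 7 of the 8 regulators were still tested. Depth limits what can be seen of Ier2 and Ier3, which each reached the filter's cutoff in 2 Emb knockdown libraries and 1 WT library and were not tested.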
